A study of Mus musculus with 9 samples.

Results

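The genes described here are 8 genes of sterol synthesis, the transcription factor gene Srebf2 and the enzyme genes Hmgcs1, Mvd, Idi1, Fdps, Fdft1, Sqle and Cyp51. They were chosen by symbol and matched to the Ensembl identifiers of the count files, 8 of the 46078 genes listed for the cultured cells and of the 38293 listed for gastrocnemius muscle (GAS). RNA sequencing was done in 9 libraries of C57BL/6 mice. Primary myoblasts (MB), the proliferating precursors of muscle fibers, were kept in growth medium with serum and basic FGF (2 libraries). Myotubes (MT) were the fused cells obtained from MB after 3 days in differentiation medium, which held less horse serum and no fetal serum or FGF (2 libraries). Lactate-treated MB had sodium-L-lactate added to the medium at 10 mM in PBS (2 libraries), and the labels say that control cells, the MB and MT libraries above, were given PBS alone in equal amount. The extraction protocol describes these as overnight conditions. GAS was taken from female mice aged 8 to 12 weeks (3 libraries). The labels name the libraries of a group as biological replicates and do not say which cultures, cell isolations or animals they came from, so that the p-values below measure only the spread between these libraries.

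Cholesterol is made from acetyl-CoA in the mevalonate pathway, whose isoprenoid products also serve protein prenylation, ubiquinone and dolichol, and the branch from squalene onwards leads only to sterols. SREBP-2, the product of Srebf2, is held in the endoplasmic reticulum while sterols are plentiful and is cut and sent to the nucleus when they fall, where it activates the genes of the pathway and of lipoprotein uptake. Growing cells need cholesterol for new membranes, and cultured cells take much of it from serum lipoproteins.

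The order of the pathway is as follows. Srebf2 (ENSMUSG00000022463, chr15:82147181-82205379) encodes the activator. Hmgcs1 (ENSMUSG00000093930, chr13:119690379-119708260) encodes cytosolic HMG-CoA synthase and Mvd (ENSMUSG00000006517, chr8:122433601-122443422) the decarboxylase that ends the mevalonate steps. Idi1 (ENSMUSG00000058258, chr13:8885501-8892451) encodes the isomerase of isopentenyl diphosphate and Fdps (ENSMUSG00000059743, chr3:89093588-89101959) farnesyl diphosphate synthase, the last step shared with the other isoprenoids. Fdft1 (ENSMUSG00000021273, chr14:63145150-63179578) encodes squalene synthase, Sqle (ENSMUSG00000022351, chr15:59315077-59331192) squalene epoxidase and Cyp51 (ENSMUSG00000001467, chr5:4081145-4104746) lanosterol 14-alpha demethylase. All positions are on mm10, and all 8 genes are annotated as protein-coding.

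SREBP proteins bind sterol regulatory elements in promoters, often beside a CCAAT box bound by NF-Y. The 250 bases before the RefSeq transcription start (assembly GRCm38.p6) were found for 5 of the 8 genes, Srebf2, Hmgcs1, Mvd, Idi1 and Cyp51. Both strands were searched for TCACNCCAC, one form of the sterol regulatory element, for CCAAT and for GGGCGG, the core of the Sp1 site. Among 32851 such windows of mouse genes, 1.05% held TCACNCCAC, 33.9% CCAAT and 32.7% GGGCGG. The CCAAT box and GGGCGG were each present in 5 of the 5 windows, and TCACNCCAC in 1 of them, that of Hmgcs1. The windows of Hmgcs1 (chr13:119690101-119690350, plus strand) and Mvd (chr8:122443423-122443672, minus strand) are shown, since Hmgcs1 was the gene of the 8 that passed the test below and Mvd a neighbour in the pathway without this element. Capitals mark TCACNCCAC and CCAAT in either orientation, 5′ to 3′ along the gene, and none of these matches overlap.
Hmgcs1: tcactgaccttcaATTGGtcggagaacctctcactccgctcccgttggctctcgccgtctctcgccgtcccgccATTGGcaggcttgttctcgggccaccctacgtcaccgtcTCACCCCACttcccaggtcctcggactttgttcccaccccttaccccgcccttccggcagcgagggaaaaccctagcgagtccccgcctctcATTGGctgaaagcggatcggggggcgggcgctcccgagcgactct
Mvd: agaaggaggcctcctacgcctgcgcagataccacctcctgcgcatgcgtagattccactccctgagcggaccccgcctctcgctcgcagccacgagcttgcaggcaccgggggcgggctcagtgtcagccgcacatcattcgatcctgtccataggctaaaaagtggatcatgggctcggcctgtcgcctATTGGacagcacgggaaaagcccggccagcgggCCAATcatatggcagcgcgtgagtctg
Positions are counted from the RefSeq start, which for Hmgcs1 lies upstream of the start of the gene in the annotation used for its coordinates above. In Hmgcs1 the element spanned bases -137 to -129, and CCAAT was read on the opposite strand (ATTGG) 3 times, nearest at bases -45 to -41. In Mvd, CCAAT was found at -60 to -56 on the opposite strand and at -27 to -23 on the gene's own strand. A match of letters is a description of the sequence and not of binding, and no match to one form of the element says nothing of other forms.

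The authors' raw counts summed to between 7770793 and 10839516 in the MB and MT libraries, to 7415628 and 5198247 in the lactate-treated ones and to between 19307793 and 19941574 in GAS. Cultured cells were sequenced with Smart-seq2, a full-length protocol with PCR amplification, and GAS from poly(A) RNA, so no test was made between them. Values are CPM, counts scaled to a common library size with TMM factors, and CPM divided by exonic kilobases (RPKM) where genes are compared with each other. Muscle markers were higher in MT than in MB for 5 of 5 genes, cycling markers were lower for 5 of 6, and myoblast markers were lower for 1 of 3 (Pax7), by the test described below. Markers of other cells moved as well. The summed CPM of 3 fibroblast markers was 2.17 to 2.57 in MB and 1875 and 13530 in MT, higher in MT replicate 1, with Col1a1 and Dcn called higher and Pdgfra not called. Endothelial, macrophage and Schwann cell markers, 3 genes each, summed to at most 12.3 CPM in any MB or MT library, and no adipocyte marker had a count in MB or lactate-treated MB. In MT replicates 1 and 2 the macrophage markers summed to 12.3 and 2.93 CPM and the endothelial markers to 9.53 and 0 CPM. The fibroblast markers lay in all GAS libraries at a sum of 313 to 406 CPM, the endothelial markers at 110 to 129 CPM and the adipocyte markers at 70.8 to 129 CPM. Schwann cell markers summed to 13.3 to 27.1 CPM in GAS and macrophage markers to 12.7 to 15.2 CPM. Of the muscle markers, Ckm, Acta1 and Myh4 of mature fibers were higher in GAS than in any cultured library, and Myh3 and Myog of developing muscle were lower than in MB and MT. Ribosomal RNA genes took 10.1% and 15.7% of the counts in replicate 1 of MB and of lactate-treated MB, and between 0.655% and 2.97% in the other cultured libraries.

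The first question was how the pathway differed between MB and MT. Hmgcs1 was the 1 gene of 8 past the test, higher in MT. The other 6 enzyme genes had fitted values above 0 and Srebf2 one below 0, and none of these passed. Called here means an adjusted p under 0.05 and an absolute log2 fold change (log2FC) over 0.5 in edgeR's quasi-likelihood test with Benjamini-Hochberg adjustment over 12921 genes. Of these genes 11.0% were called higher in MT and 6.86% lower. Among the 8 genes 1 was called higher and 0 lower. For 7 of the 8, all of them enzymes, both MT libraries lay above both MB libraries, which held for 33.1% of all genes tested. The median log2FC of the 8 was 1.16, beside 0.07 over all genes tested. In bulk RNA, fewer cells of a type and less RNA per cell cannot be told apart. MB and MT differ in their share of cycling cells and of fibroblast marker RNA, whose part in these values was not tested. They also differ in medium, so differentiation and the change of serum and FGF cannot be told apart.

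**Figure D1:**
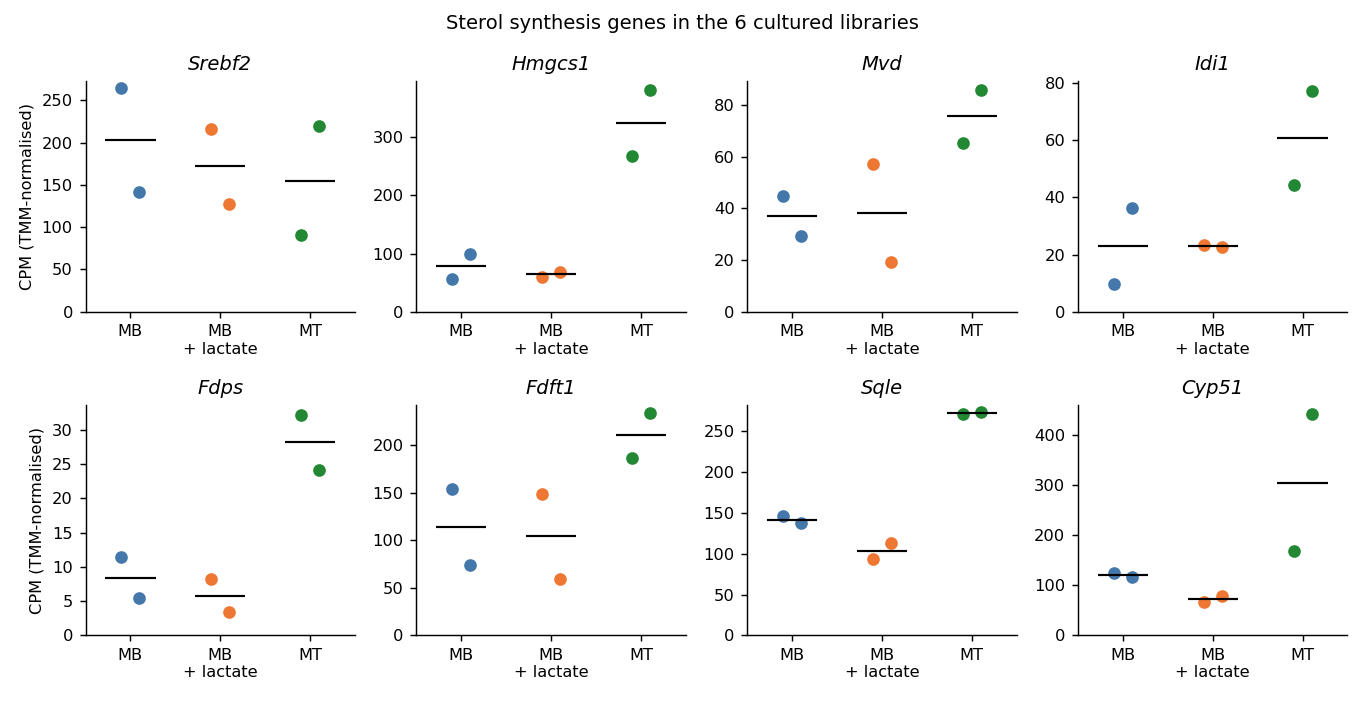
TMM-normalised CPM of each of the 8 genes in the 6 cultured libraries. Each panel is a gene with its own linear axis from 0, points are libraries, lines are the means of 2 libraries, and both MT points lie above both MB points for every gene but Srebf2.

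Srebf2 mRNA was at 264 and 142 CPM in MB and at 90.5 and 219 CPM in MT. The MT libraries lay on either side of the lower MB library, and the groups overlapped. The log2FC was -0.45 (SE 0.54, edgeR adjusted p = 0.604), with a 95% interval of -1.63 to 0.74, which holds both a fall and a rise. Without MT replicate 1 it was 0.019, and without MB replicate 1 it was 0.073. These are levels of the mRNA, and the cleavage of SREBP-2, by which sterols act on it, is not seen in such counts.

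In the mevalonate steps, Hmgcs1 was at 55.6 and 99.8 CPM in MB and at 268 and 380 CPM in MT. The groups were far apart relative to their spread. It rose 4.20-fold, a log2FC of 2.07 (SE 0.47, edgeR adjusted p = 0.0135). The call was lost without MT replicate 2 (adjusted p = 0.0600) and without MB replicate 1 (adjusted p = 0.0766), with log2FC of 1.71 and 1.65. An antisense gene, Gm48342, shares 557 of the 4594 exonic bases of Hmgcs1 and is not listed in the files of cultured cells. Mvd was at 44.6 and 29.3 CPM in MB and at 65.3 and 86.0 CPM in MT. The groups did not overlap, but the log2FC of 1.01 (SE 0.46) had an edgeR adjusted p of 0.157, and it was 0.60 without MB replicate 2.

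Idi1 had the widest relative spread of the 8 in MB, with 9.68 and 36.3 CPM, and 44.3 and 77.3 CPM in MT. Both MT values were above the higher MB value, and the log2FC was 1.43 (SE 0.60, edgeR adjusted p = 0.126). Without MB replicate 2, the higher of the MB libraries, it was 2.49 (adjusted p = 0.000464), and without MB replicate 1 it was 0.70 (adjusted p = 0.563). Without MT replicate 2 it was 0.90. A processed pseudogene of Idi1, Gm13502, is identical to its transcript over 684 bases and had 0 to 15 counts in each of the 9 libraries.

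Fdps, the lowest of the 8 by RPKM in each cultured group, was at 11.4 and 5.42 CPM in MB and 32.2 and 24.2 CPM in MT. The groups did not overlap, and the log2FC was 1.73 (SE 0.59, edgeR adjusted p = 0.0665). It passed the test without MB replicate 1 (2.34, adjusted p = 0.0019), with DESeq2 (adjusted p = 0.0300), with edgeR's likelihood ratio test (adjusted p = 0.0274) and with no filter on low counts (adjusted p = 0.0269). Without MB replicate 2 the log2FC was 1.15 (adjusted p = 0.144). The value depends on how reads were shared with near-identical copies. Processed pseudogenes are copies of a spliced mRNA set back into the genome, and those listed for Fdps, Gm3571, Gm5873 and Gm8163, match its transcript at 98.9%, 96.7% and 96.1% identity over 1062 to 1066 bases.

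Counts on these pseudogenes exceeded those on Fdps itself in the cultured cells. They made up 76.5% and 76.7% of the summed counts of Fdps and pseudogenes in MB, 83.9% and 73.6% in lactate-treated MB and 52.9% and 60.9% in MT. In GAS they made up between 2.70% and 5.17%. The share was thus lower in both MT libraries than in both MB libraries, and lower in GAS than in any cultured library. With the reads of the pseudogenes added, Fdps was at 48.4 and 23.3 CPM in MB and at 68.5 and 61.8 CPM in MT, still without overlap, and the log2FC was 0.84 (SE 0.51, edgeR adjusted p = 0.279), an alternative chosen after seeing the data. Whether the reads came from Fdps or from the pseudogenes cannot be told from gene counts, and the handling of reads with several alignments is not given in the sources used here. Another protein-coding gene, Gm43738, lies on the same strand and shares 1124 of the 4208 exonic bases of Fdps. It is listed for the cultured cells, with 0 counts in each library, and is not listed for GAS. Its part in the counts of Fdps was not tested.

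**Figure D2:**
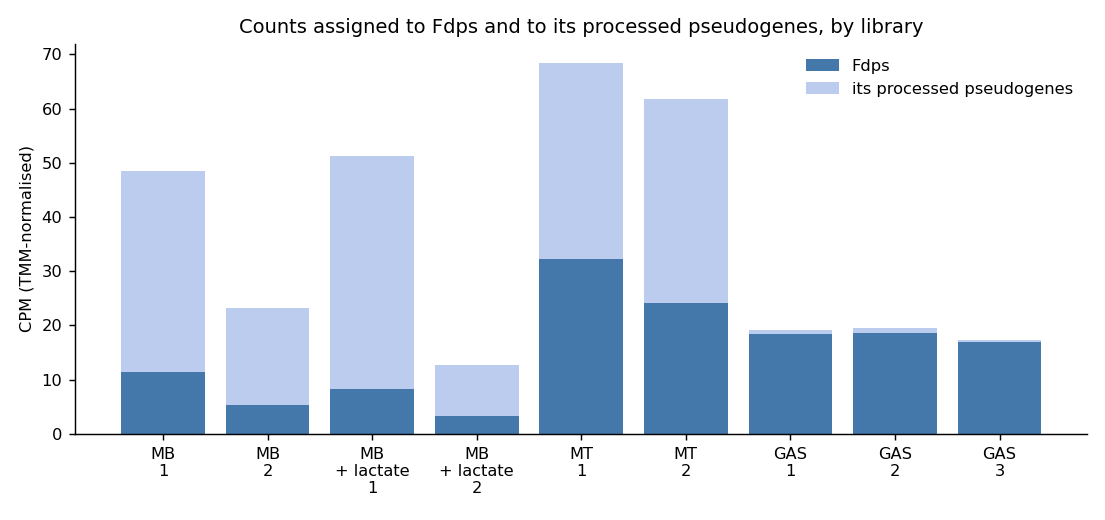
TMM-normalised CPM assigned to Fdps (dark) and to its processed pseudogenes (light) in each of the 9 libraries, stacked from 0. The pseudogenes hold the larger part in all 6 cultured libraries and a small part in the 3 GAS libraries.

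In the sterol branch, Fdft1 was at 154 and 74.2 CPM in MB and at 187 and 234 CPM in MT. The log2FC was 0.85 (SE 0.50, edgeR adjusted p = 0.265), and the groups did not overlap. It was 0.29 without MB replicate 2 (adjusted p = 0.769) and 1.46 without MB replicate 1. On the opposite strand, Ctsb shares 774 of the 4227 exonic bases of Fdft1. It had 4034 and 3607 counts in MB, 15375 and 9490 in MT, and 1773 and 2663 in lactate-treated MB. The strand setting of the counting is not given in the sources used here. The level of Fdft1 and its difference between MB and MT, with the lack of overlap, are therefore uncertain. Sqle had the closest replicates of the 8 in both groups, 146 and 137 CPM in MB and 271 and 274 CPM in MT. Its levels were 1.92-fold apart with no overlap, yet the log2FC of 0.94 (SE 0.43) had an edgeR adjusted p of 0.161. The test moderates the spread of each gene towards that of all genes. Cyp51 was at 125 and 116 CPM in MB and at 169 and 443 CPM in MT. Here the MT libraries differed more from each other than the lower one did from MB, and the log2FC was 1.30 (SE 0.51, edgeR adjusted p = 0.106). Without MT replicate 2 it was 0.38.

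**Figure D3:**
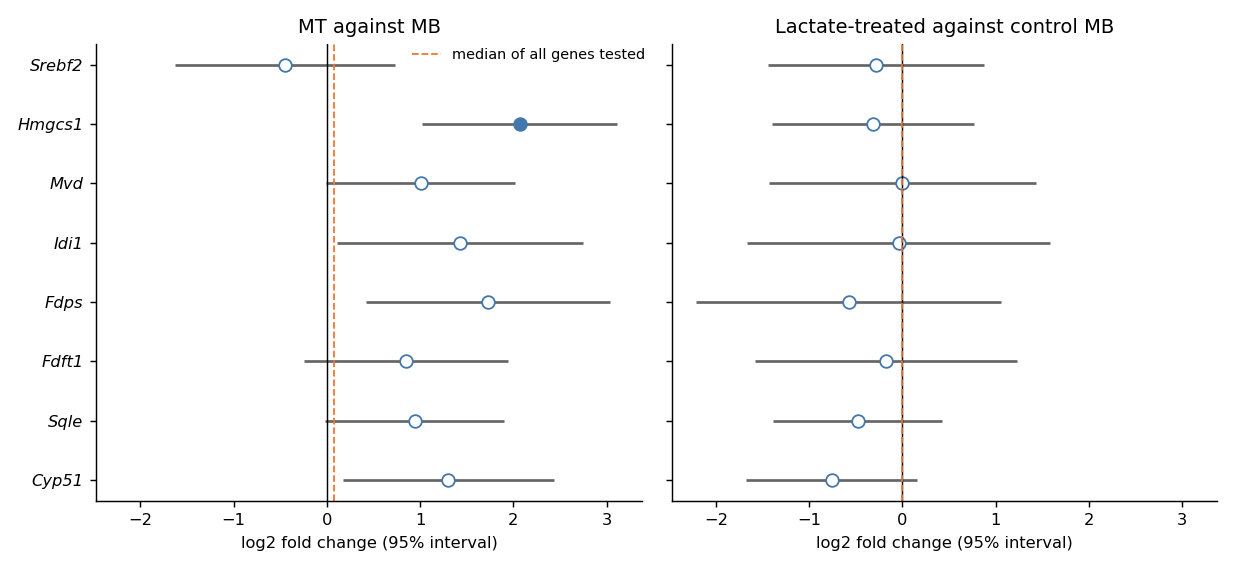
Fitted log2 fold changes (points) with 95% intervals (lines) of the 8 genes in both comparisons, on the same horizontal scale. The filled point, Hmgcs1, passed the edgeR test, and the dashed line is the median of all genes tested.

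The fold changes depended on which library was left out. The median log2FC of the 8 genes ranged from 0.77 without MT replicate 2 to 1.33 without MB replicate 1, and that of all genes tested from -0.02 to 1.00 in these fits, in which more genes of low counts passed the filter when 1 library was left in a group. Without MT replicate 2 the medians of the 8 genes and of all genes were 0.77 and 0.72, and without MB replicate 2 they were 0.93 and 1.00. With no filter on low counts they were 1.19 and 1.82.

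The rest of the pathway was taken from lists chosen by role. None of the 4 other mevalonate enzymes was called, with log2FC between 0.09 and 1.00. Of 10 other enzymes of the sterol branch 3 were called higher and 1 lower, with a median log2FC of 1.04. Sc5d, lathosterol oxidase, was at 29.9 and 50.0 CPM in MB and 158 and 158 CPM in MT (log2FC 2.01, SE 0.44, edgeR adjusted p = 0.0114). Hsd17b7, the 3-keto sterol reductase, rose by a log2FC of 1.83 (SE 0.47, edgeR adjusted p = 0.0217). Dhcr7, which catalyses the last step of 1 arm of the branch, was at 50.5 and 30.9 CPM in MB and at 91.7 and 177 CPM in MT (log2FC 1.68, SE 0.49, edgeR adjusted p = 0.0391). These 3 enzymes act after Cyp51 in the pathway.

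Lbr was the 1 sterol enzyme that fell. It was at 134 and 208 CPM in MB and at 50.3 and 58.6 CPM in MT (log2FC -1.63, SE 0.43, edgeR adjusted p = 0.0250). Its product is a C14 sterol reductase and also a receptor for lamin B in the nuclear envelope. Tm7sf2, which encodes the other C14 sterol reductase, was at 27.3 and 12.5 CPM in MB and at 32.5 and 45.0 CPM in MT and was not called. The count of 3 higher was 1 without MT replicate 1 or without MT replicate 2, and to 2 without either MB library. That of 1 lower was 0 without either MT library and 2 without MB replicate 2.

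Among 6 genes that control SREBP cleavage, 1 was called, higher in MT. Insig2, which retains the SREBP escort protein SCAP in the endoplasmic reticulum, was at 15.4 and 23.9 CPM in MB and at 164 and 75.7 CPM in MT (log2FC 2.65, SE 0.54, edgeR adjusted p = 0.0077). Without MT replicate 1 it was 1.90 (adjusted p = 0.103). Insig1, which has the same role and is itself an SREBP target, was at 55.6 and 59.7 CPM in MB and at 82.9 and 161 CPM in MT and was not called. The median log2FC of the list was -0.14.

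Of 11 genes of lipoprotein uptake and sterol trafficking 2 were called higher and 0 lower, with a median log2FC of 0.39. They act in opposite directions on uptake. Vldlr encodes a lipoprotein receptor and was at 6.37 and 3.98 CPM in MB and at 50.8 and 12.0 CPM in MT (log2FC 2.63, SE 0.75, edgeR adjusted p = 0.0352). Mylip encodes the ubiquitin ligase that marks receptors of this family for degradation, and it was at 5.64 and 2.41 CPM in MB and at 18.2 and 28.6 CPM in MT (log2FC 2.49, SE 0.65, edgeR adjusted p = 0.0235). The call of Vldlr was lost without MT replicate 1 (adjusted p = 0.577) and that of Mylip without MT replicate 2 (adjusted p = 0.0647).

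Among efflux and storage genes 4 of 6 had enough counts and 0 were called. Of 6 genes of the other isoprenoid branches 1 was called, Pdss1, a subunit of the enzyme that makes the side chain of ubiquinone, which fell by 1.79 on the log2 scale (SE 0.55, edgeR adjusted p = 0.0464). Without MT replicate 1 its adjusted p was 0.379. Of 9 genes of fatty acid synthesis 2 were called higher, with a median log2FC of -0.05 for the list. Acss2, which makes acetyl-CoA from acetate in the cytosol, was at 7.60 and 3.37 CPM in MB and at 115 and 71.5 CPM in MT (log2FC 4.08, SE 0.61, edgeR adjusted p = 0.0017). Scd1, stearoyl-CoA desaturase, was at 69.6 and 29.0 CPM in MB and at 249 and 406 CPM in MT (log2FC 2.68, SE 0.57, edgeR adjusted p = 0.0095). Both kept their calls in all 12 alternatives tried, leaving out each library among them.

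**Figure D4:**
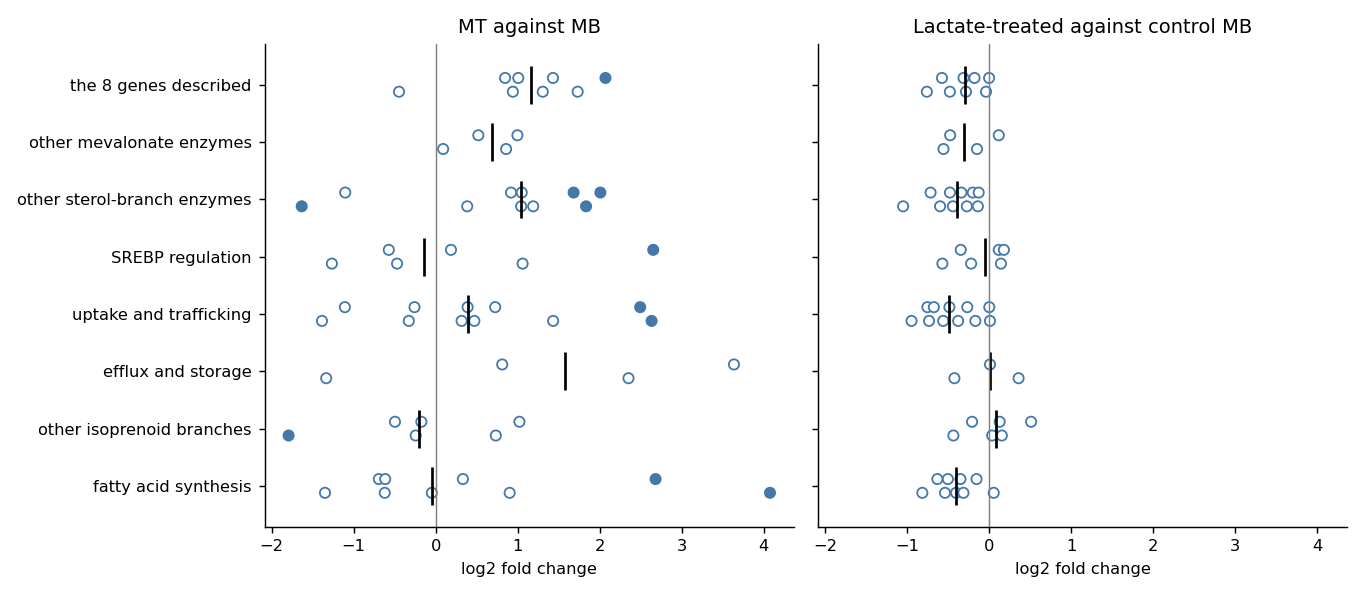
Fitted log2 fold changes of the genes of each list (points, offset vertically for visibility) in both comparisons, on the same horizontal scale, with the median of each list as a vertical line. Filled points passed the edgeR test with adjusted p, and none is filled for lactate.

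The second question was whether lactate changed these genes in MB. No gene was called by adjusted p or by the study's nominal rule among 11804 genes tested, 0% by either rule. The nominal rule is p under 0.01 and the same log2FC threshold. By it the paper reports a small group of genes, higher and lower, and the reason for the difference was not tested. In edgeR 5 genes had an unadjusted p under 0.05. DESeq2 gave 3 such genes and edgeR's likelihood ratio test 11. With the replicate number as a block, edgeR gave 166 such genes, 1 of the 8 among them. Deviations of same-numbered libraries correlated at r = 0.71 across genes, a likeness that the main fit counts as spread. The lack of calls therefore does not show that lactate left these genes unchanged. The 8 genes had fitted log2FC below 0, between -0.76 for Cyp51 and -0.00079 for Mvd, with a median of -0.30 beside -0.0034 over all genes tested, and each had an edgeR adjusted p of 1.00. In 2 of the 8 both lactate-treated libraries lay below both control libraries, which held for 7.96% of all genes tested. The control libraries are the MB libraries of the first comparison.

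Cyp51 was at 125 and 116 CPM in control MB and at 65.9 and 79.5 CPM in lactate-treated MB. The groups did not overlap, and the log2FC was -0.76 (SE 0.38, edgeR adjusted p = 1.00), with a 95% interval of -1.68 to 0.16. Sqle was at 146 and 137 CPM in control MB and at 94.2 and 113 CPM after lactate. Its log2FC was -0.48 (SE 0.37, edgeR adjusted p = 1.00), with a 95% interval of -1.39 to 0.43. These genes kept values below 0 in all 12 alternatives, between -0.94 and -0.58 for Cyp51 and between -0.66 and -0.30 for Sqle, and passed no test in any of them.

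For the other 6 genes the groups overlapped. Srebf2 was at 264 and 142 CPM in control MB and at 216 and 127 CPM after lactate (log2FC -0.28, SE 0.48). Hmgcs1 was at 55.6 and 99.8 CPM against 59.4 and 68.6 CPM (log2FC -0.31, SE 0.45). For Mvd the lactate-treated libraries, at 57.1 and 19.4 CPM, lay on either side of the control libraries. Idi1 was at 23.4 and 22.6 CPM after lactate, between its control values. Fdps had few counts, 93 and 45 in control MB and 47 and 19 after lactate, and a 95% interval of the log2FC from -2.21 to 1.06. With the reads of its pseudogenes added, its log2FC was -0.21 (SE 0.72) in place of -0.58 (SE 0.67). Fdft1 was at 149 and 59.6 CPM after lactate, close to the library of the same number in the control at 154 and 74.2 CPM.

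Libraries with the same replicate number, which the labels do not tie to a shared culture, differed in the same direction for part of the genes. On the log2(CPM + 1) scale replicate 1 of lactate-treated MB was below replicate 1 of control MB in 5 of the 8 genes, and replicate 2 below replicate 2 in 8 of 8, with medians of -0.17 and -0.54. The replicate 1 libraries were those with the high share of ribosomal RNA. With ribosomal RNA and mitochondrial genes left out, the median log2FC of the 8 genes was -0.30 too. It was -0.10 without MB replicate 1, -0.56 without MB replicate 2, -0.62 without replicate 1 of lactate-treated MB and -0.073 without replicate 2, where the median of all genes was -0.14. With RLE size factors it was -0.24, and Mvd and Idi1 were above 0 (0.080 and 0.021).

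Over all genes tested, 5962 of 11804 had a log2FC below 0. Of 4 other mevalonate enzymes 3 had a log2FC below 0, as had 10 of 10 other sterol-branch enzymes, 9 of 11 genes of uptake and trafficking, 8 of 9 of fatty acid synthesis and 3 of 6 of SREBP control. Their medians were -0.31, -0.39, -0.48, -0.40 and -0.05. Of 6 isoprenoid-branch genes 2 were below 0, with a median of 0.08, and of 3 efflux and storage genes with enough counts 1 was, with a median of 0.010. None of them passed either rule, and genes of 1 library are not independent of each other.

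The levels in GAS were the third question. By RPKM the order of the 8 genes was Fdft1, Hmgcs1, Fdps, Idi1, Mvd, Srebf2, Cyp51 and Sqle. Fdft1 was at 14.4 ± 1.39 RPKM (SD, n = 3), Hmgcs1 at 7.04 ± 0.101 and Fdps at 4.27 ± 0.228, and the ranges of these genes did not overlap. The level and place of Fdft1 are uncertain here too, since Ctsb on its opposite strand had 5678, 5954 and 5464 counts in GAS. Idi1, Mvd and Srebf2 had mean RPKM of 2.40 ± 0.196, 2.16 ± 0.247 and 2.01 ± 0.374, and neighbours among them overlapped. Cyp51 followed at 0.972 ± 0.235 RPKM. Sqle, whose product catalyses the first oxygenation of the sterol branch, was at 0.0826 ± 0.0323 RPKM, with 10, 12 and 5 counts in the libraries.

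**Figure D5:**
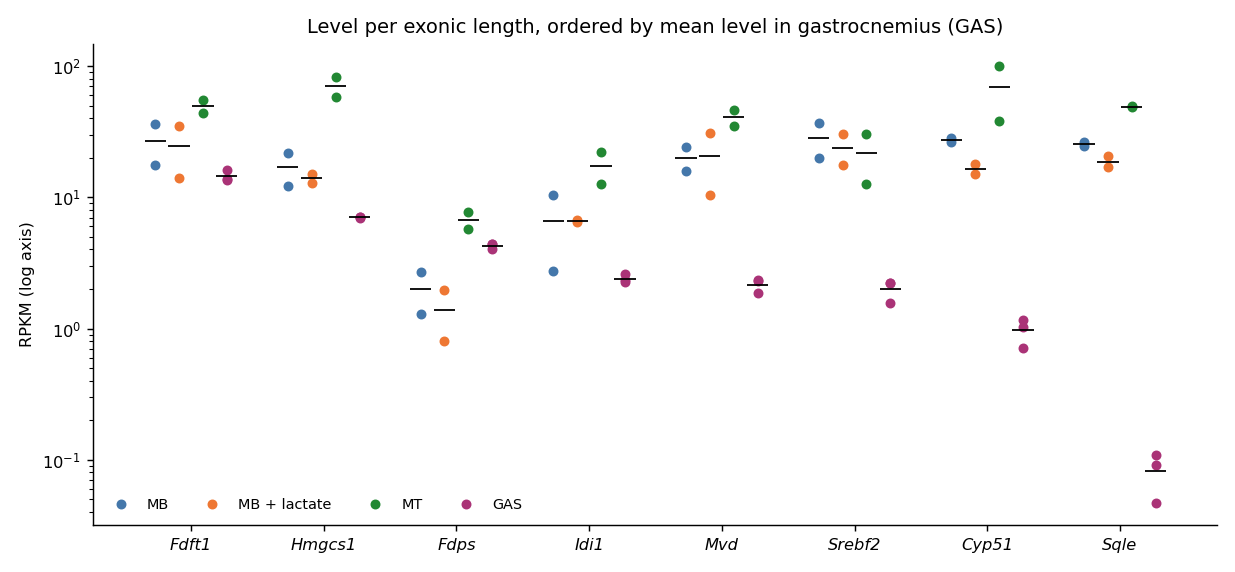
RPKM of the 8 genes on a log axis in each library of the 4 groups, ordered by the mean level in GAS, with group means as short lines. Sqle and Cyp51 are the lowest in GAS and among the higher genes in MB and MT.

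Sqle thus gave the lowest of the 8 levels in GAS, and its 0.260 to 0.608 CPM were still above the 0.150 to 0.155 CPM that 3 counts represent there, a limit of counting error only. Among 21250 protein-coding genes ranked by RPKM, Sqle stood at the 37.2nd to 40.7th percentile in the GAS libraries and Fdft1 at the 90.5th to 91.8th. The median percentile of the 8 genes was 68.2 to 69.5 in GAS, 87.6 to 90.2 in MB, 85.1 to 85.7 in lactate-treated MB and 94.4 to 94.8 in MT. The part of the fat, fibroblast, endothelial and other nonmuscle cells of the tissue in these levels was not tested. GAS and the cultured cells differ in protocol, genes listed, tissue, cell types and RNA input at once, and these cannot be told apart.

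The order of the genes differed between the groups. In MB, Srebf2, Cyp51, Fdft1 and Sqle led with mean RPKM of 28.3 ± 12.0, 27.3 ± 1.43, 27.0 ± 13.3 and 25.5 ± 1.15 (SD, n = 2), and their ranges overlapped. Idi1 and Fdps closed the order at 6.56 ± 5.37 and 2.00 ± 1.00 RPKM. Lactate-treated MB had these at the end too, with 6.55 ± 0.159 and 1.38 ± 0.820 RPKM. In MT, Hmgcs1 and Cyp51 led at 70.5 ± 17.3 and 69.3 ± 43.9 RPKM, with overlapping ranges, and Srebf2 had place 6 at 21.6 ± 12.7 RPKM. Fdps held place 8 of 8 in each cultured group and place 3 in GAS. The levels of Fdps depend on the pseudogene reads described above. Its places may depend on these reads and on the exons shared with Gm43738, listed only for the cultured cells. The summed CPM of the 7 enzymes was 498 and 546 in MB, 366 and 457 in lactate-treated MB, 1036 and 1518 in MT and 125 to 134 in GAS.

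Across the 6 cultured libraries, which share their groups and protocol, every pair of enzymes had a Pearson r above 0. The 21 pairs of enzymes had Pearson r between 0.317 and 0.978 on log2(CPM + 1), with a median of 0.679. Pairs of other genes were not computed, so these values have no background beside them. Mvd and Fdft1 were the closest pair, and Hmgcs1 and Sqle had r = 0.926. Srebf2 had r between -0.353 and 0.323 with the enzymes, above 0 for 3 of 7. These values are descriptions over 6 libraries in which the MT libraries set much of the variation. Outside the pathway lists, the genes nearest to the mean profile of the 8, of 8877 genes with at least 10 CPM on average, were Dtd1, Galk2, Pmp22, Aldh3a2 and Cd9, with r of 0.995, 0.994, 0.993, 0.993 and 0.992. Dtd1, for example, was at 13.5 and 10.7 CPM in MB, 11.2 and 8.36 CPM in lactate-treated MB and 22.0 and 34.1 CPM in MT. Of the pathway genes Dhcr7 was the nearest, at rank 8 with r = 0.988. The 7 enzymes, though part of the mean profile, ranked only between 568 (Fdps) and 1632 (Idi1). Many genes outside the pathway lists thus followed that profile more closely than the enzymes did.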

How the data were processed

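RNA of GAS (3 libraries) and of MB, MT and lactate-treated MB (2 each) was sequenced. The authors trimmed reads (Trim Galore 0.6.6), aligned them to mm10 (HISAT2 2.2.1), counted them on genes (Subread 2.0.1) and deposited raw counts per gene. The annotation release, strand setting and handling of reads with several alignments are not given in the sources used here. Names, positions and exonic lengths came from GENCODE M21, and promoter windows from RefSeq (GRCm38.p6).

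MT against MB (differentiation with its change of medium) and lactate-treated against control MB were tested with edgeR 4.0.16 (R 4.3.3). The fit used filterByExpr, TMM, the quasi-likelihood test and Benjamini-Hochberg adjustment over all genes tested, without the replicate number in the model. The fit was also run on simulated counts, which varied less between libraries than these data, so that run does not show how the fit performs here. CPM used TMM for the 6 cultured and the 3 GAS libraries separately, and log2 values a pseudocount of 1 CPM. Intervals are 95%. At these depths 3 counts are 0.277 to 0.577 CPM in cultured libraries. Copies were sought with BLAST 2.17.0 (at least 95% identity over 200 bases). Python 3.11.15 was used for the rest. Named are the 8 genes, genes of the other pathway lists that passed the test or by role, and the 5 genes nearest in pattern. Genes and lists were chosen with earlier results of these data known. CUT&Tag data were not analysed here.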

Additional observations from a re-analysis of the deposited data

How the results depend on the processing

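Alternatives were RLE size factors, DESeq2 1.42.0, edgeR's likelihood ratio test, the replicate number as a block, dropping the filter, requiring 10 counts in each library, all 6 cultured libraries in one fit, leaving out ribosomal RNA and mitochondrial genes, and leaving out each library. A crossed block and Fdps with its pseudogenes were chosen after seeing the data. The cause of a change was not tested. With 1 library left in a group, that library is assumed to vary like the others.

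For MT against MB, the number of the 8 genes called higher was 1, but 2 with DESeq2, with the likelihood ratio test and with no filter, and 0 to 2 with a library left out. Genes called higher over all genes numbered 766 when 10 counts were required in each library and 962 to 4118 with a library left out, and genes called lower 1343 with the likelihood ratio test and 270 to 1570 with a library left out. Srebf2 ranged from -1.29 to 0.073 with a library left out and was 0.019 without MT replicate 1. Under the alternatives 86 log2FC of the 8 genes kept direction and side of the threshold, 7 gained the call, 2 lost it and 2 turned.

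For lactate, no alternative called any of the 8. Over all genes, 2 were called higher by adjusted p without MB replicate 1. By nominal p, 1 gene was higher with DESeq2 and with no filter, and 1 to 176 were higher and 0 to 1 lower with a library left out. With a library left out, the log2FC ranged from -0.66 to 0.33 for Srebf2 (0.021 without lactate-treated replicate 2), -0.60 to 0.18 for Hmgcs1, -0.91 to 0.56 for Mvd (0.44 without MB replicate 1), -0.61 to 1.22 for Idi1, -1.30 to 0.15 for Fdps and -0.92 to 0.54 for Fdft1 (0.31 without lactate-treated replicate 2). Mvd and Idi1 were at 0.080 and 0.021 with RLE and with DESeq2, and at 0.014 and 0.013 with all 6 libraries.

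With the replicate block, 3 of the 8 genes were called higher in MT (Hmgcs1, Idi1 and Fdps), with 1447 genes higher and 824 lower in all, and lactate gave 7 genes higher and 6 lower by nominal p, none of the 8, with Idi1 at 0.22. The labels give no shared source for a number, and there are only 2 pairs. Deviations of same-numbered libraries correlated at r = -0.13 across genes for MT and MB and at 0.71 for lactate-treated and control MB. With the numbers crossed between MT and MB, 1192 genes were called higher and 867 lower, and 1 of the 8 genes higher.

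In GAS, taking the longest transcript as the length gave 16.5 RPKM for Fdft1, 9.33 for Hmgcs1, 6.09 for Fdps, 2.84 for Srebf2 and 2.78 for Idi1. The other levels moved by less than 1 SD under this length, RLE factors or leaving out a library. With 2 libraries per group, only large differences can pass the test, and low counts limit Fdps in culture and Sqle in GAS.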
